A study of Mus musculus with 4 samples.

Results

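Strong control-only regions are stretches of open chromatin that carried a strong ATAC-seq peak in both control libraries and no peak of any strength in either Hoxa5-deficient library. ATAC-seq marks accessible DNA by where the transposase Tn5 inserts. The series holds 2 Hoxa5-deficient and 2 control libraries, which the submitters name biological replicates, of cervical spinal cells of mouse embryos at embryonic day 12.5. In both groups the cells were sorted by GFP from a ChAT::GFP transgenic line, whose reporter is driven by choline acetyltransferase sequences and so marks cholinergic cells, and the Hoxa5-deficient embryos were littermates of the controls. The sample titles abbreviate the groups as Mut and Wt, but the labels give neither the Hoxa5 allele, nor the alleles the controls carry, nor the number of embryos per library, and they give motor neurons as the cell type.

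Merging all intervals of the 4 peak lists on the autosomes, X and Y that share at least 1 bp gave 199576 regions. A region was strong in a library when its best peak had a column 9 value, the −log10 of the q-value given by the peak caller, of 5 or more. Of the 53697 regions strong in both controls, 1476 had no Hoxa5-deficient peak, which is 2.75%. These 1476 regions were chosen by their peak values in all 4 libraries, so their presence in controls and absence in Hoxa5-deficient libraries is a description and carries no test. The mirrored class, strong in both Hoxa5-deficient libraries and without a control peak, held 6146 of 66291 regions, which is 9.27% and 4.16 times as many regions as the control-only class. This ratio moves with the length of the lists, which were longer in the Hoxa5-deficient libraries. With the same number of peaks kept per library, an alternative for this ratio added after the data were seen, the classes held 6209 and 2277 regions, a ratio of 2.73. Regions strong in 1 library of each genotype and absent from both others numbered 60, 52, 153 and 91 in the 4 possible pairs, a mean of 89.0.

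Hoxa5 belongs to the Hox5 paralogs and encodes a transcription factor that binds DNA through a homeodomain. Hox proteins bind DNA with cofactors of the Pbx, Meis and Pknox families, and in the cervical spinal cord the Hox5 genes are known for their part in the development of phrenic motor neurons, which drive the diaphragm. Open regions away from genes are often enhancers, and a gene can be served by enhancers far outside its body. Neural progenitors of the spinal cord are kept dividing by Sox2 and by Notch signalling through Hes1 and Hes5, while proneural factors and their E-protein partners, which bind E-boxes, drive neuronal differentiation.

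Few of the control-only regions lie at starts of genes, and sequences of some of those that do are given as examples. The windows from 250 bases before to 50 bases after gene starts in the RefSeq promoter table of GRCm38.p6 number 32851, and 25 control-only regions overlapped 27 of them, 10 of protein-coding genes. The stretches below, from RefSeq on that build, are the part of each window upstream of the start that a control-only region covered. They are shown for the genes Myt1, a zinc finger factor of neuronal differentiation, Lmx1b, a LIM homeodomain factor of dorsal interneurons, Hyal1, a hyaluronidase, Arhgef19, a guanine nucleotide exchange factor, and for the long noncoding RNA C130071C03Rik, a neighbour of Mef2c. Capitals mark matches on either strand to 5 motifs: TGATNNAT for Hox-Pbx, TAATTA for homeodomains, CANNTG for E-boxes, ACAAT for Sox factors and ATCGAT for Onecut factors.
Myt1, chr2:181763082-181763331, plus strand: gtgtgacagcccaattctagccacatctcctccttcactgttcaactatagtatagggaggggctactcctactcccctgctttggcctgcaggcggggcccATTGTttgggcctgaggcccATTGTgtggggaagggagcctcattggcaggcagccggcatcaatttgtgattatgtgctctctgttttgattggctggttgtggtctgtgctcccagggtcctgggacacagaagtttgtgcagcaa
Lmx1b, chr2:33641099-33641306, minus strand: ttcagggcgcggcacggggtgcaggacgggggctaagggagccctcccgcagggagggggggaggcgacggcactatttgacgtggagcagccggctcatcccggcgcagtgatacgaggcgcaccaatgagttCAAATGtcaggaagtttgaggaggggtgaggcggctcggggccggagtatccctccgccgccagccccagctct
Hyal1, chr9:107576700-107576949, plus strand: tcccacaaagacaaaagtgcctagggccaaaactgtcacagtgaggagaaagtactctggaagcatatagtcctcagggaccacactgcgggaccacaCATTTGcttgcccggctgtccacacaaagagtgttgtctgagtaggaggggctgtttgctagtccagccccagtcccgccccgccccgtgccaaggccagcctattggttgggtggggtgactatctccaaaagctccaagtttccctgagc
Arhgef19, chr4:141244838-141245087, plus strand: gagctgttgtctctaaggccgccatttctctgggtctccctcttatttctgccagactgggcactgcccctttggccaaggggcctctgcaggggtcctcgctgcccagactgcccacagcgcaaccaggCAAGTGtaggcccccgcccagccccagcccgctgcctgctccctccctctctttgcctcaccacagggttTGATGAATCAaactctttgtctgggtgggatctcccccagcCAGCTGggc
C130071C03Rik, chr13:83732243-83732492, plus strand: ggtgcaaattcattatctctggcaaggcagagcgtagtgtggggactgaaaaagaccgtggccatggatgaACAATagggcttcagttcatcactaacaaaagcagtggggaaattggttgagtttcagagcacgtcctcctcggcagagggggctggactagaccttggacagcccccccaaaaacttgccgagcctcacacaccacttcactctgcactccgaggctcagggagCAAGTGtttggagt

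The Myt1 stretch held 2 matches to the Sox motif, and its control-only summit lay at position −124 from the start, with column 9 values of 17.6 and 11.6 in control libraries 1 and 2. At Lmx1b the summit lay at position −22, beside a single E-box match, with values of 10.1 and 12.5. At Arhgef19 the Hox-Pbx motif matched on both strands at 1 place upstream, and the summit lay 162 bases after the start, with values of 9.39 and 11.0. Over whole windows, the Hox-Pbx motif was found in 4 of the 27 overlapped windows (14.8%), against 8.85% of all 32851 windows. Among the 4 are the windows of Arhgef19 and of the noncoding C630004L07Rik. These windows overlap on opposite strands under the same control-only region and hold the same match, so the 4 windows are not separate sites. The E-box motif was in 77.8% of overlapped windows against 72.3% of all, the Sox motif in 33.3% against 31.0%, the homeodomain motif in 7.41% against 5.29%, and the Onecut motif in 0 of 27 against 0.925%. Motif matches can overlap each other. The median GC content was 51.0% in overlapped windows and 52.7% in all windows.

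Control-only regions also lay at microRNA genes, small RNAs that silence mRNAs through the seed, bases 2 to 8 of the mature strand. Of 1005 hairpins in the RefSeq table, 11 lay within 1 kb of a control-only region and 2 were overlapped by one, Mir181a-1 and Mir181b-1, a neighbouring pair. Some of the 11 share a region, Mir181a-1 with Mir181b-1 and Mir219a-1 with Mir219c. Hairpins near all strong control regions were not counted, so whether 11 is many or few cannot be said. The mature strands below, from RefSeq on GRCm38.p6, are those of the overlapped hairpins and of 2 hairpins known from neural tissue, miR-9, a microRNA of the developing nervous system, and miR-219, known for its part in oligodendrocyte differentiation. Capitals mark the seed.
mmu-miR-181a-5p, chr1:137966468-137966490, plus strand: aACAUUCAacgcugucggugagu
mmu-miR-181b-5p, chr1:137966650-137966673, plus strand: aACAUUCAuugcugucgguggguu
mmu-miR-9-5p, chr7:79505279-79505301, plus strand: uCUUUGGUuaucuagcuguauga
mmu-miR-219a-5p, chr17:34025052-34025072, minus strand: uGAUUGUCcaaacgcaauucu

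Both miR-181 strands have the seed ACAUUCA, and the control-only region that covers their hairpins had column 9 values of 6.96 and 7.31, from 24.0 and 22 tags at the summit. The region at Mir9-3 lay 478 bp from the hairpin, with values of 11.9 and 11.8. The region at Mir219a-1 was the strongest of the regions within 1 kb of a hairpin, 699 bp away and 99 bp from the gene H2-Ke6, with values of 38.4 and 19.1 from 155 and 103 tags. Another region lay 205 bp from Mir1897, inside the noncoding Sox2ot gene at the Sox2 locus, and is described with Sox2.

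The lists, read on the autosomes, X and Y, were not equally long. The Hoxa5-deficient lists held 192771 and 206114 summits and covered 62.7 and 68.1 Mb, and the control lists held 165866 and 163016 summits and covered 52.3 and 50.9 Mb. Read totals are not given, but the tag pileup at a summit can be recovered from its fold and p-value. The lowest background, which follows depth, was 5.14 and 6.06 tags in the Hoxa5-deficient libraries and 5.43 and 4.39 tags in the controls, so Hoxa5-deficient library 2 was the deepest and control library 2 the shallowest. At that background a peak at the lowest significance listed needed 11 and 12 tags in the Hoxa5-deficient libraries and 12 and 10 in the controls. Between 323 and 363 peak numbers are missing from each list as read here, 228 and 213 of them among peaks of column 9 of 5 or more in the Hoxa5-deficient lists. They were counted after peaks outside the autosomes, X and Y were dropped, so any such peaks count as missing. Those could not overlap a control-only region. Whether other peaks were removed before deposit is not known. A region whose Hoxa5-deficient peak was removed in that way would count as control-only here.

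Control-only regions were weak to moderate peaks. Their column 9 values ran from 5.07 through a median of 9.73 to 78.0 in control library 1, and from 5.0 through 8.33 to 168 in control library 2. The tags at the summit had medians of 32.0 and 26.0, and the fold over background had medians of 4.04 and 4.19, against 7.05 and 7.14 over all regions strong in both controls. The regions were also short, with a median length of 390 bp, against 542 bp in the Hoxa5-deficient-only class, 803 bp over regions strong in both controls and 765 bp over regions present in all 4 libraries. Within the control-only regions, 79.3% and 80% had a single summit in control libraries 1 and 2, and the summits of the 2 controls lay a median of 22 bp apart. Library 1 had the higher value in 922 of the 1476 regions. The plot of both controls shows these values.

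**Figure D1:**
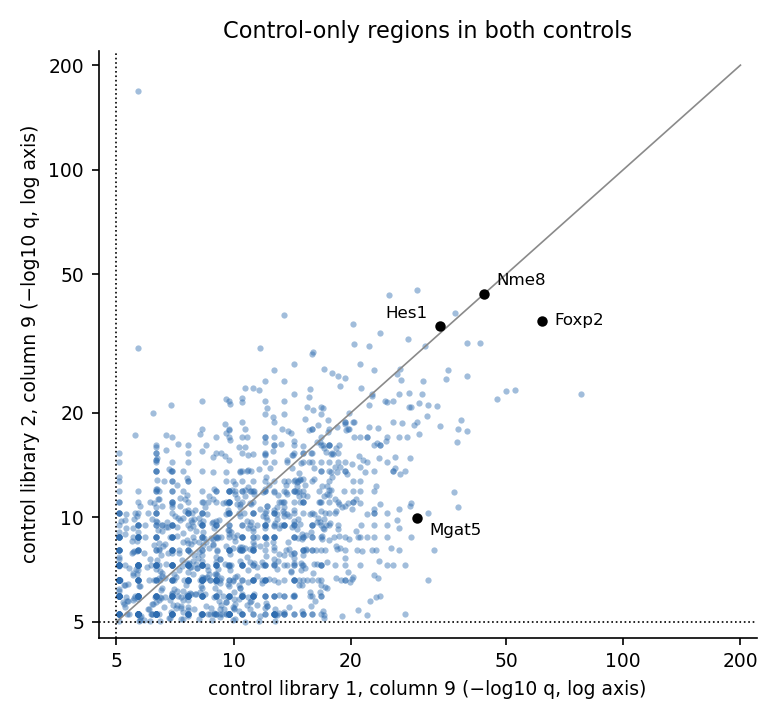
Column 9 (−log10 q, log axes) of each of the 1476 control-only regions in control library 1 and control library 2. Each point is a region, dotted lines mark the minimum of 5, the grey line marks equal values, and 4 named regions are in black. Most points lie under 20 on both axes, and the region inside Nme8 has the highest lower value, 43.9.

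The lower of the 2 control values was mostly small, and the share of strong control regions that were control-only declined as that value grew. The lower value was 10 or more in 365 control-only regions, 20 or more in 42 and 30 or more in 7. Among regions with a lower value of 5 to 6, 445 of 4222 were control-only (10.5%). The share was 5.94% at 8 to 10, 1.64% at 15 to 20 and 0.106% at 30 to 50, and none of the 16212 regions of 50 or more was control-only. The Hoxa5-deficient-only share declined too but was higher in each bin, at 26.3%, 19.6%, 10.3%, 2.92% and 0.320% in the same bins. Just below the minimum, with a lower value of 4.5 to 5, 205 of 1600 regions lacked a Hoxa5-deficient peak (12.8%), and just above it, at 5 to 5.5, 260 of 2152 did (12.1%). Of the regions strong in both controls, a further 2264 had a peak in exactly 1 Hoxa5-deficient library, 1261 in library 1 and 1003 in library 2, with a median column 9 of 3.40 for that peak.

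**Figure D2:**
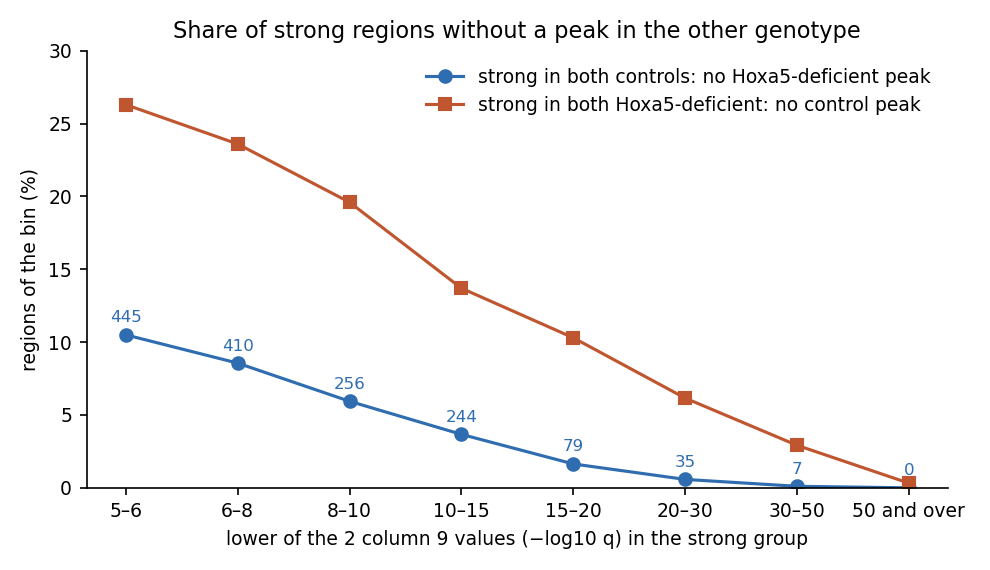
Percent of strong regions with no peak in the other genotype, by the lower of the 2 column 9 values in the group where they are strong. Blue circles are regions strong in both controls, with the number of control-only regions above each, and orange squares are regions strong in both Hoxa5-deficient libraries. Both shares decline with strength, the control-only share to 0 at 50 and over.

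Regions were also chosen from 1 library of each genotype, and their presence in the 2 left-out libraries was counted. This comparison was added after the data were seen. Each set strong in 1 control holds all 1476 control-only regions. By their rule these have a peak in the left-out control and none in the left-out Hoxa5-deficient library. Each mirrored set likewise holds all 6146 Hoxa5-deficient-only regions. The shares are therefore a description and give no separate support for either class. Regions strong in control library 1 and absent from Hoxa5-deficient library 1 numbered 6493, and 33.7% of them had a peak in Hoxa5-deficient library 2, against 71.6% in control library 2. Over the other 3 choices of 1 library of each genotype, the left-out Hoxa5-deficient library had 33.6%, 36.1% and 37.9% of the regions, against 73.6%, 76.7% and 78.3% in the left-out control. When regions were instead strong in 1 Hoxa5-deficient library and absent from 1 control, the left-out Hoxa5-deficient library had between 81.2% and 93.8% of them, against between 24.0% and 32.8% in the left-out control. The 4 choices share libraries, and with 2 libraries a group the exact two-sided permutation test cannot give a p under 0.33.

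The strongest control-only regions were spread over genes of several kinds. The first by the lower control value was inside Nme8, which encodes a thioredoxin-domain protein of the ciliary axoneme, at chr13:19683231-19683695, with column 9 values of 43.9 and 44 and folds of 10.3 and 11.2. The next was inside Satb1, a chromatin organiser and homeobox factor, with values of 36.9 and 38.8. The third was inside Foxp2, a forkhead factor, with 61.7 and 36.7 from 110 and 74.0 tags. These 3 regions lie over 10 kb from any protein-coding gene end, the Foxp2 region 259 kb from one.

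The fourth region was the strongest near a gene end. It lies at chr16:30065068-30065428, 160 bp outside Hes1, a repressor that carries out Notch signals, with column 9 values of 33.8 and 35.5. Its folds were 3.56 and 4.17, over a local background of 38.9 and 28.3 tags. A region present in all 4 libraries lay 0.508 kb away, and the strongest peak within 1 kb of the ends of Hes1 stood at percentiles 93.2 and 94.1 of all intervals in Hoxa5-deficient libraries and 92.3 and 91.5 in controls.

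The following 8 were at Sox6, a SoxD factor (39.7 and 31.8), in the noncoding gene Mir100hg with Ubash3b as the nearest protein-coding gene, 268 kb away (42.9 and 31.7), in Lrrc75b (31.0 and 31.2), 46.9 kb from Ythdf1, a reader of methylated adenosine in mRNA (29.5 and 45.2), 18.8 kb from Kmt2e (28.0 and 32.5), 125 kb from Sema6d, a transmembrane semaphorin, inside the noncoding Gm39920 (26.7 and 26.8), 166 kb from Wdr11 (35.5 and 26.5) and 12.8 kb from Ackr3, a scavenging chemokine receptor (26.3 and 25.8). Of these 8, the regions at Sox6 and Lrrc75b are inside the gene they are assigned to. Outside the rule for named genes, and chosen after its values were seen, the fifteenth region lies inside Slc32a1, which encodes the vesicular transporter of GABA and glycine, with values of 25 and 43.7. The largest gap between the 2 controls, also picked out after the fact, was in Plxdc2, with 5.69 and 168 from 22 and 151 tags. That region is 219 bp long, and the high value rests on control library 2 alone.

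By position, control-only regions were more often away from gene ends than strong control regions as a whole. They were about as often so as strong control regions with a lower value of 5 to 10. The 365 control-only regions of 10 or more had 7.12% at gene ends, for which no share over all strong control regions of that strength was counted. A summit lay within 1 kb of an end of a protein-coding gene in 85 of 1476 regions, which is 5.76% with a 95% Wilson interval of 4.68% to 7.07% that covers counting error only. The share was 1.2% in the Hoxa5-deficient-only class, 23.5% over all regions strong in both controls and 5.82% over those with a lower value of 5 to 10. A transcription start lay within 1 kb of 63 control-only regions (4.27%, Wilson 3.35% to 5.42%), against 22.6% of all regions strong in both controls. Of those of 5 to 10 the share was somewhat higher, at 5.89%. Joining summits within 200 bp in place of merging intervals gave 13.8% at gene ends among 2226 regions.

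Most control-only regions were inside genes. A gene body held 812 of them (55.0%), against 45.5% of the Hoxa5-deficient-only class and 52.9% of all regions strong in both controls. Those over 100 kb from any protein-coding body numbered 195 (13.2%, Wilson 11.6% to 15%), against 28.9% in the Hoxa5-deficient-only class, 10.5% over all regions strong in both controls and 16.2% over those of 5 to 10. The median distance to a gene end was 29.0 kb, against 78.7 kb in the Hoxa5-deficient-only class, 14.6 kb over all regions strong in both controls and 34.6 kb over those of 5 to 10. Read within that range of strength, 59 of 775 regions at gene ends were control-only (7.61%), 909 of 10389 in between (8.75%) and 143 of 2156 over 100 kb from a gene (6.63%). These shares lie near the 8.34% of the range as a whole.

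**Figure D3:**
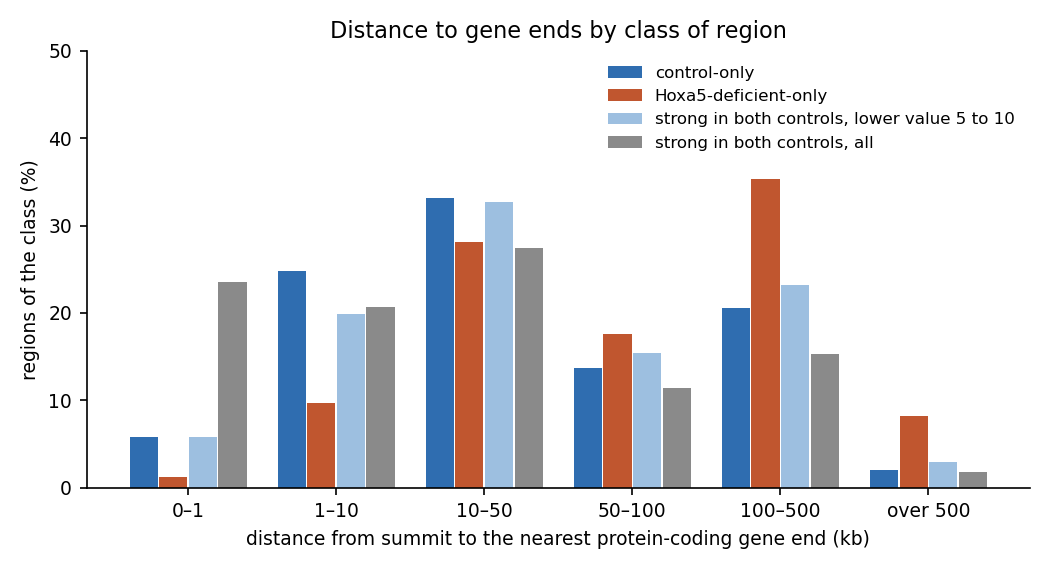
Percent of regions by distance in kb from the summit to the nearest end of a protein-coding gene, for control-only regions, Hoxa5-deficient-only regions, regions strong in both controls with a lower column 9 value of 5 to 10, and all regions strong in both controls. Within 1 kb the control-only bar stands at 5.76%, beside 1.2% for Hoxa5-deficient-only regions and 23.5% for all strong control regions. At 100 to 500 kb the Hoxa5-deficient-only bar is the tallest, at 35.3%.

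Control-only regions were found on every chromosome, and the share of strong control regions that were control-only ran from 1.97% on chromosome 4 to 4.07% on chromosome 18 among the autosomes. Chromosome 13 followed with 3.62%, and the X had 28 of 1048 (2.67%). The Y had 1 of only 13.

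Some control-only regions lay close together. Another was within 100 kb of 348 of the 1476 (23.6%), and within 25 kb of 138 (9.35%). For an equal number of Hoxa5-deficient-only regions, the 1476 strongest, these shares were 17.1% and 5.62%. Of all strong control regions within 100 kb of a control-only region, 422 of 11603 were themselves control-only (3.64%), and within 1 Mb the share was 2.97%, set beside the 2.75% over all strong control regions. Runs with gaps under 100 kb numbered 131 of 2 regions, 23 of 3, 3 of 4 and 1 of 5. At a minimum column 9 of 10 the share with another within 100 kb was 6.58%, since fewer regions are left to be neighbours.

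The run with most regions lay beside Mef2c, a MADS-box factor of neurons and muscle, over noncoding genes. Its 5 control-only regions span 153 kb at chr13:83732215-83885497, and the span also holds 10 regions present in all 4 libraries and 1 Hoxa5-deficient-only region. The region at the start of C130071C03Rik, whose sequence is given above, was the strongest of the 5, with column 9 values of 9.57 and 17.5. It stands on a high local background of 62.3 and 53.3 tags, with folds of 1.98 and 2.47.

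The run at Ceacam1 and Ceacam2 had no shared region in it. These genes encode related cell adhesion molecules of the immunoglobulin superfamily, and their 4 control-only regions lie at chr7:25461410-25516562, a pair at an end of each gene. All 4 strong control regions of this 55.2 kb span were control-only. The pair at Ceacam1 had column 9 values of 16.8 and 19.8, and of 9.72 and 21.6, in the 2 controls, and the pair at Ceacam2 had 10.5 and 6.61, and 14.3 and 8.77. Only 2 regions with any Hoxa5-deficient peak lay in the span, and none present in all 4 libraries. The genes are closely related in sequence, so reads could be split or misplaced between them, and how reads of repeated sequence were mapped is not stated. A further run of 4 spans 148 kb over Cacna2d2, a calcium channel subunit, Hyal1, Gnai2 and Slc38a3, among 18 regions present in all 4 libraries.

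By gene, the control-only regions were assigned to 1248 of 21883 protein-coding genes, by the body that holds the summit or else the nearest body. A gene had 1 region in 1077 cases and 2 or more in 171. Inpp4b, a phosphoinositide phosphatase, had 5, all inside its 792 kb body, out of 6 strong control regions, with lower values from 5.08 to 11.1. It also had 2 Hoxa5-deficient-only regions and 4 present in all 4 libraries. The other genes with 5 were Mef2c, Nav2, a neuron navigator protein, and Tcf4, an E-protein, but these had 27, 51 and 30 strong control regions. A further 8 genes had 4, of which the first by symbol were Aff3, Bach2, a leucine zipper repressor, Mgat5, which branches N-glycans, and Slco3a1, an anion transporter, with 34, 31, 17 and 22 strong control regions. Among genes with 2 or more strong control regions, those whose every one was control-only were Ap3s1, Ceacam1, Ceacam2 and Slc25a43, with 2 each, named after their values were seen.

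Neural progenitor and Notch genes held several of the regions. Sox2 had 4 of its 31 strong control regions control-only, none inside the gene and at 12, 161, 453 and 497 kb from it. The nearest lay inside Sox2ot, with column 9 values of 14.7 and 6.37, and the strongest, at 161 kb, had 33.8 and 18.3 from 56.0 and 36.0 tags. The neural progenitor list had 10 control-only of 255 strong control regions (3.92%, Wilson 2.14% to 7.07%), against 2.75% over all, at Sox2, Msi2, Gli2 and Irx3 among others. Since the share depends on strength, each list was also read among regions with a lower value of 5 to 10, where 8.34% of all strong control regions were control-only. There the progenitor list had 6 of 71 (8.45%), about that of the whole. On the Notch list the count was 10 of 143 (6.99%), and 8 of 29 at 5 to 10 (27.6%), spread over Hes1, Hes5, Dll1, a Notch ligand, the coactivators Maml2 and Maml3, and others. Hes5 had 2 of its 4 strong control regions control-only, at 2.22 and 11.9 kb, with values of 14.3 and 7.91, and of 9.67 and 11.0.

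Proneural genes and their partners, and glial genes, had higher shares than the whole. The list of proneural and E-protein genes had 11 of 127 (8.66%, Wilson 4.91% to 14.8%), with 5 at Tcf4, and 2 each at Tcf12, another E-protein, and Id4, an inhibitor of such factors. At Tcf4 the strongest had 29.9 and 21.3 from 58.0 and 45.0 tags. The glial list had 12 of 170 (7.06%, Wilson 4.08% to 11.9%), with 3 each in or near Nfia, Zbtb20 and Slc1a3 and 2 at Nfix. Nfia and Nfix are nuclear factor I genes that promote gliogenesis, and Slc1a3 is an astroglial glutamate transporter. The stronger Nfix region had 26.9 and 24.9. At 5 to 10 the counts were 7 of 35 on the proneural list and 6 of 45 on the glial list (13.3%), against 8.34% over all. Regions of 1 gene are not independent, and the Hoxa5-deficient-only share of these lists was 5.65% and 6.86%, set beside 9.27% over all strong Hoxa5-deficient regions.

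Motor neuron identity genes had few. Of 225 strong control regions at 20 such genes, 2 were control-only (0.889%, Wilson 0.244% to 3.18%), 1 inside Ebf2 with column 9 values of 12.7 and 18.8 and 1 inside Slit3, a Robo ligand, with 17.4 and 12.3. On the same list 45 of 323 strong Hoxa5-deficient regions were Hoxa5-deficient-only (13.9%), against 9.27% over all strong Hoxa5-deficient regions. The synaptic list had 11 of 500 (2.2%) and the cadherin list 10 of 293 (3.41%), where the Hoxa5-deficient-only shares were 19.2% and 22.1%. The Hoxa5-deficient-only shares of lists were not read within a range of strength, on which they also depend. The phrenic motor column list had 11 of 267 (4.12%), at Cdh13, Cdh2, Negr1, Tshz1 and 3 others, and axon guidance genes had 15 of 433 (3.46%), with 3 at Dcc, a netrin receptor, and 2 each at Plxna2 and Robo2. The stronger Plxna2 region had 28.2 and 22.8. At 5 to 10 these lists lay under the 8.34% of the whole, with none of 80 regions on the motor neuron identity list, 5.38% on the synaptic list, 5.94% on the cadherin list, 7.61% on the phrenic list and 6.80% on the axon guidance list.

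Hox genes and their cofactors had single regions. The Hox list had 4 control-only of 95 (4.21%), at Hoxb3, Hoxb9, Hoxc11 and Hoxc4, with lower values from 6.41 to 12. The Hoxc4 region lies 29.0 kb from the gene, with 12 and 12.1 in the 2 controls, and the Hoxb3 region lies inside the gene, with 8.10 and 7.66. No control-only region lay within 100 kb of Hoxa5, where 25 regions were strong in both controls. Within 5 Mb of it 5 of 350 were control-only (1.43%). Intervals in Hoxa5 itself numbered 2 in each library, and peaks do not show which allele was there. The cofactor list had 7 of 144 (4.86%), among them regions at Pbx3, Meis1, Meis2 and Pknox1. At 5 to 10 the Hox list had 3 of 20 and the cofactor list 5 of 47 (10.6%). The strongest cofactor region was 7.08 kb from Pknox1, with 22 and 14.4.

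Counts on the other lists were low. Spinal interneuron genes had 9 of 257 (3.50%), 3 of them inside Lmx1b within a run of 71.2 kb, and the SoxC and SoxD list had 5 of 99 (5.05%), all at Sox5 and Sox6. The Foxp, Satb and Bcl11 list had 4 of 114, the neural crest and sensory list 3 of 102, and the Polycomb complex 2, retinoic acid, mesoderm and housekeeping lists had 1 each. Blood and endothelial genes had 6 of 58 (10.3%, Wilson 4.83% to 20.8%), the highest share of the 20 lists, and 4 of 20 at 5 to 10. Of the 6, 3 were assigned to Ptprc from outside it, the nearest being the miR-181 region 96.5 kb away. The regions assigned to Cdh5 and Kdr lay 518 and 133 kb from those genes, and only the Runx1 region lay inside its gene. The plot by gene list gives all 20 shares.

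**Figure D4:**
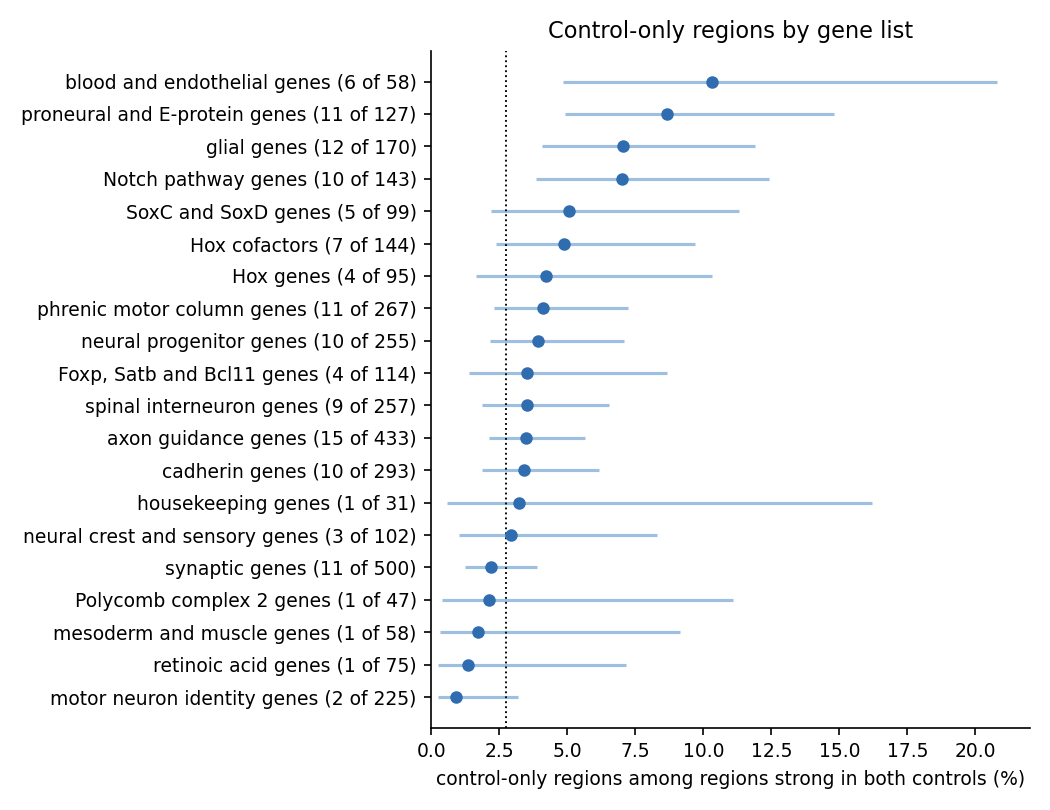
Percent of regions strong in both controls that were control-only, for regions assigned to the genes of each of 20 lists, with both counts in brackets. Points are shares, bars are 95% Wilson intervals for counting error, and the dotted line is the 2.75% over all strong control regions. The blood and endothelial, proneural, glial and Notch lists stand highest and the motor neuron identity list lowest, at 0.889%.

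Markers of motor neurons and of other cell types are set beside these gene groups. For each marker gene the strongest peak within 1 kb of the gene's ends was given its percentile among the intervals of its library, with 0 for no peak. The motor neuron list had a peak in all 4 libraries for 7 of 8 genes, with summed percentiles of 450 and 517 in Hoxa5-deficient libraries and 521 and 481 in controls. Of the 8 genes, 2 were lower and 2 higher in both Hoxa5-deficient libraries. The lower ones were Isl2, which had no peak within that distance in the Hoxa5-deficient libraries, and Lhx3. The higher ones were Chat and Slc18a3, at 91.4 and 93.4 in Hoxa5-deficient libraries and 80.4 and 85.9 in controls. These 2 genes share a peak, which the sums count for each of them. Neural progenitor markers summed to 447 and 452 in Hoxa5-deficient libraries and to 449 and 475 in controls, and 3 of 6 were lower and 2 higher in both Hoxa5-deficient libraries. The lower ones include Sox2, at 76.1 and 75.5 in Hoxa5-deficient libraries and 89.2 and 87.1 in controls, and Hes5, at 81.5 and 81.7 against 90.4 and 90.2. The higher ones include Olig2, at 76.5 and 81.3 in Hoxa5-deficient libraries and 51.5 and 68.9 in controls.

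The remaining lists were mixed. Glial markers summed to 243 and 238 in Hoxa5-deficient libraries and to 253 and 249 in controls, with Nfia at 0 in all libraries. Sox9 stood at 77.9 and 80.2 against 90.7 and 87.9 in controls, and Slc1a3 went the other way, at 86.4 and 85.6 against 78.8 and 77.5 in controls. Interneuron markers summed to 181 and 237 against 265 and 228 in controls, sensory markers to 235 and 262 against 246 and 236, and mesoderm markers to 173 and 182 against 214 and 203. Of the 4 mesoderm markers, 1 was lower in both Hoxa5-deficient libraries, Pdgfra, at 0 and 14.2 against 67.0 and 58.0 in controls. Another 2, Myod1 and Twist1, were higher in both Hoxa5-deficient libraries. The Schwann and crest markers summed to 179 and 190 in Hoxa5-deficient libraries and to 175 and 161 in controls. All 4 blood and endothelial markers were at 0 in all 4 libraries. The part of other cells in the control-only regions was not tested, and fewer cells of a type and less open chromatin per cell cannot be told apart in bulk libraries.

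Around the control-only regions, open chromatin shared by all libraries was measured with values the choice of regions did not use. The nearest region present in all 4 libraries lay a median of 5.06 kb away, within 1 kb of 269 control-only regions (18.2%) and within 25 kb of 1269 (86.0%). A region with any Hoxa5-deficient peak lay within 1 kb of 418 (28.3%). Each of the 65789 regions present in all 4 libraries was given the percentile of its column 9 among them, library by library. The 3619 of them within 25 kb of a control-only region had median percentiles of 50.3 and 50 in Hoxa5-deficient libraries and 53.1 and 52.9 in controls. The groups did not overlap, and the difference of the means, −2.83 percentile points, had an exact two-sided permutation p of 0.33, the smallest that 2 against 2 libraries can give.

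Region by region, 1328 of these 3619 neighbours (36.7%) ranked lower in both Hoxa5-deficient libraries than in both controls, against 32.8% of all 65789. Those ranked higher in both numbered 1008 (27.9%), against 29.1% of all. The difference was not nearest to the control-only regions. Within 5 kb the 1038 neighbours had medians of 56.9 and 56.9 in Hoxa5-deficient libraries and 56.4 and 56.0 in controls, a difference of 0.64. From 5 to 25 kb the 2581 neighbours had 47.5 and 46.9 against 51.5 and 51.7 in controls, a difference of −4.39, and from 25 to 100 kb the 7787 had 50.3 and 50.4 against 52.2 and 52.2. Each of these comparisons has the same smallest p of 0.33.

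**Figure D5:**
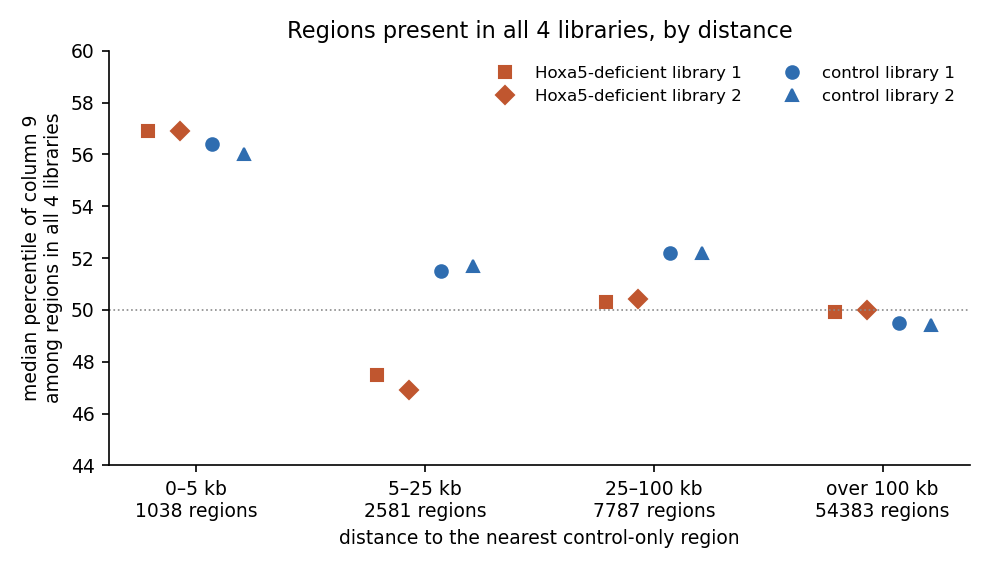
Median percentile of column 9 of regions present in all 4 libraries, by distance in kb to the nearest control-only region, for Hoxa5-deficient libraries 1 and 2 (orange) and control libraries 1 and 2 (blue). The vertical axis runs from 44 to 60, and the dotted line is the 50th percentile. The Hoxa5-deficient medians lie 4.39 points under the controls at 5 to 25 kb and 0.64 points above them within 5 kb.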

How the data were processed

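Per the submitters' processing notes the build was mm10 and the tools were MACS2 2.2.4, SAMtools 1.9, Bowtie2 2.3.4.3 and FastQC 0.11.9. How reads were shifted for Tn5, all parameters and the filters on reads and peaks are not given in the sources used here. For every library the authors deposited a separate peak list. Its columns hold, in the form MACS2 writes, a deposited score, a fold enrichment ratio at the summit, a −log10 p-value, a −log10 q-value, and other base positions. The lowest deposited −log10 p is 2.00 in each list. These values are the authors' and belong to single peaks. Only peaks on the autosomes, X and Y were used here.

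From the lists, intervals were merged at 1 bp overlap with Python 3.11.15, pandas 2.3.3, NumPy 2.4.6 and SciPy 1.17.1, and figures were drawn with Matplotlib 3.10.9. Pileups were whole numbers within 0.001 in −log10 p for 100% of 20000 summits per library, for −log10 p under 300. Genes came from a RefSeq table of GRCm38.p6, the assembly of mm10; it gives no strand, so both ends of each gene were used. All 1666 pairs of opposite-strand promoter windows that overlap gave the same bases in their overlap. With no genome given, motifs were searched in promoter windows and not around summits. Of 383 listed genes, 1 (Drgx) was not matched.

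The control-only regions and the gene lists were chosen with earlier results of these data known. Genes were named by a rule: those of the 12 strongest regions, the 8 genes with most regions (ties by symbol), the 3 runs with most regions (ties by span), Hox genes and cofactors with a region, and up to 4 genes per list; exceptions are marked in the text, and 1 gene that the rule names is not reported here. The shared-region test is an exact permutation over 4 libraries. With 2 libraries a group, it measures only the spread between these libraries. The code was tested on simulated data. Alternatives were the minimum value, the presence rule, the merging, equal peak numbers, distances, the gene set, fold for rank, a replicate block and leaving out each library.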

Additional observations from a re-analysis of the deposited data

How the results depend on the processing

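The number of control-only regions depended on the rule. It was 2857 at a minimum column 9 of 3 and 365 at 10, 2226 with summits within 200 bp joined, 2277 with the same number of peaks per library (163016), and between 2479 and 4302 when 1 library was left out, the highest without control library 2. When only Hoxa5-deficient peaks of column 9 of 2 or more counted as present it was 2208. The share at gene ends was 7.12% at a minimum of 10, 13.8% with summits joined, 10.4% within 2 kb, 10.9% with all genes of the annotation and between 4.49% and 5.85% without 1 library. The share over 100 kb from a gene was 1.83% with all genes of the annotation and between 12.9% and 14.1% without 1 library. The share with another within 100 kb follows the number of regions, and was 35.0% at a minimum of 3, 6.58% at 10, 31.9% with the presence rule of 2 or more, 31.0% with summits joined, 32.0% with equal peak numbers, between 32.2% and 44.5% without 1 library, and 9.35% within 25 kb.

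The difference in median percentile of neighbouring shared regions was negative in 13 of 13 alternatives, between −3.93 (minimum of 10) and −1.35 (fold in place of column 9), and between −2.84 and −2.35 without 1 library. With the replicate number as a block it was −2.83 with an exact p of 0.5, the smallest 2 pairs can give, and the numbers share no deviation (r = −0.003 over regions), so they do not pair the libraries. No p here could pass a threshold, so none bears on stability. Depth sets which weak peaks were listed, and its part in the absence of a Hoxa5-deficient peak was not tested.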
